A study of Homo sapiens with 14 samples.

Results

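The G1 and A-type cyclins and the kinases they switch on were followed through knockdown of LINC00152, a long non-coding RNA, in A172 and U87 glioblastoma cells. The members were the D-type cyclins CCND1, CCND2 and CCND3 with CDK4 and CDK6, the E-type cyclins CCNE1 and CCNE2 with CDK2, and the A-type cyclins CCNA1 and CCNA2. They were taken by the RefSeq accession of each array probe, which gave 11 probes for these 10 genes. The array held 50599 distinct non-control probes, of which 29034 were named by RefSeq accession for 20993 genes. CCNE2 had 2 probes and each other member had 1.

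Cells of both lines were electroporated either with a negative control siRNA of medium GC content that matches no RNA or with an siRNA against exon 1 of LINC00152, each at 20 pmol/ml, and were grown for 40 h by the labels before RNA was taken. Control and knockdown arrays came from 3 independent experiments in A172 and 4 in U87, numbered as sets, which gave 14 one-colour Agilent arrays. The study's methods name a longer time than the labels do, so the time is not certain. The design asks which transcripts change when LINC00152 is lowered and how the lines compare. As models the groups are limited to established lines grown in culture, to 1 siRNA treatment against LINC00152 and to 1 time point.

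The siRNA shown is the one the study names for its knockdown check in both lines. The study lists another against LINC00152, and its array methods do not name which was used.
siLINC00152 #1: tgcctgtcttcagatcttcacagca

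Cyclins are regulatory subunits that rise and fall through the cell cycle, and a cyclin-dependent kinase is active only when a cyclin is bound to it. D-type cyclins with CDK4 or CDK6 start the phosphorylation of the retinoblastoma protein in G1, E-type cyclins with CDK2 complete it at the entry to S phase, and A-type cyclins drive S phase and the steps towards mitosis. In glioblastoma the G1 checkpoint is commonly lost, by gain of CDK4 or CDK6 or by deletion of the inhibitor gene CDKN2A.

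Levels are the log2 of the scanner's processed signal minus the log2 of the array's 75th percentile signal, so 0 is the 75th percentile of that array. A probe was well above background where the scanner software called at least 0.5 of its spots so, and a line's test took it in when either treatment group of the line had 3 or more such arrays. The 75th percentile signal lay between 131.3 and 283.7 on the A172 arrays and between 33.0 and 69.0 on the U87 arrays, and 57.3% to 69.0% of A172 spots and 35.7% to 48.3% of U87 spots were well above background. Both arrays of U87 set 3 stood apart. The control array of that set had 35.7% of spots well above background and a median Spearman correlation of 0.834 with the other U87 controls, and the knockdown array had 40.4% and 0.906, against 44.4% to 48.3% and 0.939 to 0.948 on the other U87 arrays. Member results that rest on set 3 are therefore given with and without it. Each A172 set was hybridised on a slide of its own and all U87 arrays on 1 slide, so for any member line and slide cannot be told apart.

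LINC00152, named CYTOR in RefSeq, had 1 probe by RefSeq accession, A_24_P273143, and other probes that may read it were not sought. In A172 its level was 2.63, 2.44 and 2.48 in the control arrays of sets 1 to 3 and 0.23, -0.42 and -0.10 in the knockdown arrays. The U87 level was 1.94, 1.83, 1.71 and 1.82 in the controls of sets 1 to 4 and -1.21, -0.88, -0.74 and -0.79 after knockdown. Control and knockdown arrays did not overlap in either line. The target fell by 2.61 (log2) in A172 (SE 0.24, limma adjusted p = 0.000692) and by 2.73 in U87 (SE 0.19, adjusted p = 2.73e-05), and the effects of the lines differed by 0.12 (SE 0.29, adjusted p = 1).

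The line labels were compared with cell type markers. Of 7 glial and glioma markers, VIM, NES and CD44 were well above background on all 6 A172 and all 8 U87 arrays, while SOX2 was so on 6 A172 and 0 U87 arrays and OLIG2 on 6 and 3. The astrocyte markers GFAP, on 1 A172 and 0 U87 arrays, and S100B, on 0 of both, were near or at background. Among markers of other cell types, the leukocyte probes PTPRC and CD14 were well above background on all arrays and CD3E on 6 A172 and 6 U87 arrays. The endothelial probes VWF and CDH5 were so on all arrays and PECAM1 on the 6 A172 arrays and 0 U87 arrays. The epithelial probe KRT18 was so on 6 and 4 arrays, EPCAM on 1 and 0 and CDH1 on 0 and 0. The fibroblast probe COL1A2 was so on all arrays, COL1A1 on 6 and 0 and DCN on 5 and 0. Of all these markers, 2 were called after knockdown, both in the paired model only. CD44 fell by 1.13 in A172 (SE 0.12, adjusted p = 0.00753), from 3.00, 1.76 and 1.47 in the controls of sets 1 to 3 to 1.72, 0.66 and 0.47, and was at 0.12 in U87 (adjusted p = 0.505). COL1A2 rose by 0.95 in U87 (SE 0.13, adjusted p = 0.0156), from 0.42, 0.55, 0.72 and 1.59 in the controls of sets 1 to 4 to 1.33, 1.48, 1.95 and 2.33, and was at 0.17 in A172 (adjusted p = 0.896). KRT18 was at 0.64 in A172 (adjusted p = 0.279) and was not tested in U87. The summed linear signal of the fibroblast list was 1.46, 1.61, 1.84 and 3.09 in the U87 controls and 2.69, 2.97, 4.00 and 5.17 after knockdown. That of the epithelial list was 86.3, 112.9 and 50.6 in the A172 controls and 134.7, 150.9 and 90.9 after knockdown. COL1A2, at a mean level of 1.30 in U87, carried the former, with COL1A1 at -3.84 and DCN at -3.88. KRT18, at 6.62 in A172, carried the latter, with EPCAM at -5.11 and CDH1 at -5.79. These sums thus repeat single genes and do not show a shift of a whole list. The glial and glioma sum was 237.3, 297.5 and 227.5 in the A172 controls and 204.2, 258.0 and 193.4 after knockdown, lower in 3 of 3 pairs. In U87 it was 740.5, 788.4, 406.5 and 682.8 in the controls and 771.7, 818.0, 557.3 and 692.1 after knockdown, higher in 4 of 4 pairs. VIM and NES carried this sum, at mean levels of 6.96 and 6.64 in A172 and 8.84 and 7.60 in U87. The next marker of the list, CD44, was at 1.51 and 2.56. The leukocyte and endothelial sums went both ways among the pairs of each line, as did the fibroblast sum in A172 and the epithelial sum in U87. The part of these lists in the member results was not tested. As RNA was taken from whole cultures, fewer cells of a type and less RNA per cell cannot be told apart for any cyclin or kinase.

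Most members differed little between control and knockdown next to the fall in LINC00152. The brighter CCNE2 probe was higher in every knockdown array than in its paired control, save U87 set 2 under 1 other scaling. Both of its U87 set 3 values were not well above background, so no direction is read from that pair. The fits with all arrays still include it. The second CCNE2 probe entered the A172 test by its knockdown arrays alone and was near background in U87, so nothing is drawn from its direction. CDK4 was higher in all 7 pairs by small amounts. CDK6 was lower and CCND1 higher in each A172 pair, while their U87 pairs went both ways, and CCNE1 was higher in the A172 pairs and lower in the U87 pairs. Of all 28340 probes tested in A172, 19.4% were higher and 16.9% lower in all 3 pairs. A probe was called when the adjusted p was under 0.2 and the log2 fold change was beyond 0.5 in either direction. In the limma model without a term for the sets, 1 of 10 member probes was called in A172, CCNA1, where 0.183% of all 28340 tested probes were called. CCNA1 entered the A172 test by its controls alone, well above background on 3 of 3 arrays against 0 of 3 after knockdown. Of the 1540 probes that entered that test so, 0 were called higher and 118 lower in the paired model, so the direction of such a call is set by the filter and supports nothing. In that model 0 of 8 member probes were called in U87, where 0.0502% of 21922 were, and 0 of 8 for the difference between lines, where 0.00945% of 21166 were. At an unadjusted limma p under 0.05 the member counts were 1 in A172, again CCNA1, 0 in U87 and 0 for the difference. The shares of all probes were 2.32%, 2.59% and 0.988%.

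When each control was compared with the knockdown of its own set, by a term for the set in the model, the spread left over was smaller. In this paired model 1 of 10 member probes, CCNA1, was called in A172 beside 3.33% of all probes, 0 of 8 in U87 beside 5.55%, 0 of 8 for the difference beside 1.32%, and 1 of 8, CCNE2, for the average of both lines beside 2.86%. The paired limma model gave an unadjusted p under 0.05 for 4 members in A172, 1 in U87, 2 for the difference and 3 for the average. The shares of all probes were 10.8%, 19.6%, 10.4% and 19.6%. Without CCNA1, which entered by its controls alone, the A172 count was 3. Of the genes tested, each by its brighter probe, 5 were higher and 4 lower after knockdown in A172, with a median log2 fold change of 0.19 (0.20 without CCNA1) against 0.02 over all probes. In U87 6 were higher and 2 lower, with a median of 0.10 against -0.02. The U87 tally and median rest in part on set 3. Without it the paired U87 values of CCNA2, CCND1 and CCNE1 were -0.02, -0.44 and -0.14. Those of CCND3, CDK6, CDK2, CDK4 and CCNE2 were 0.01, 0.01, 0.02, 0.18 and 0.29. CCNA1 in U87, CCND2 in both lines and the second CCNE2 probe in U87 were too dim to be tested.

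**Figure D1:**
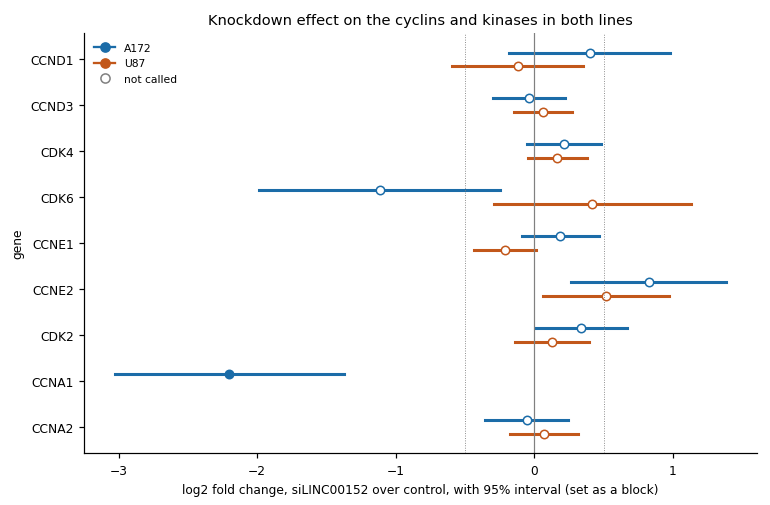
Log2 fold change of each tested member gene, by its brighter probe, after LINC00152 knockdown in A172 and U87 in the paired model, with 95% confidence intervals, where filled points passed the call rule, open points did not and dotted lines mark 0.5 in either direction. CCNA1 in A172 is the 1 filled point, and as its signal was at background on all 3 knockdown arrays, its position is no measure of size.

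Cyclin D1, encoded by CCND1, is the growth-factor-responsive partner of CDK4 and CDK6. In A172 the CCND1 level was 1.88, 1.47 and 1.27 in the controls and 2.19, 1.87 and 1.75 after knockdown. It was higher in each of the 3 pairs, by 0.31 to 0.49, while the groups overlapped. In U87 it was 2.30, 2.44, -0.19 and 3.01 in the controls and 1.88, 2.01, 0.65 and 2.55 after knockdown. The knockdown array was lower in sets 1, 2 and 4, with differences of -0.42, -0.42 and -0.47, and higher in set 3 by 0.84. The set 3 control was the lowest U87 array for CCND1 and the groups overlapped. With all arrays the paired log2 fold change was 0.40 in A172 (SE 0.25, adjusted p = 0.726), -0.12 in U87 (SE 0.21, adjusted p = 0.768) and 0.52 for the difference (SE 0.31, adjusted p = 0.586). Without set 3 the paired values were 0.40 in A172 (adjusted p = 0.0898) and -0.44 in U87 (adjusted p = 0.0516), both short of 0.5. The difference of 0.84 was then called (adjusted p = 0.049), while without the term for the sets it was not (adjusted p = 1). Leaving out a U87 set does not alter an A172 value. It alters the A172 adjusted p because the lines share 1 estimate of the spread. By mean level, knockdown A172 stood first, then U87 control, U87 knockdown and A172 control, and all neighbours overlapped. This order rests on U87 set 3. The U87 controls of the other sets lay above every A172 array, and without set 3 both U87 groups stood above both A172 groups by mean.

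CCND2, a D-type cyclin used in a more tissue-restricted way, was not well above background on any of the 14 arrays. Its values lay between -6.40 and -5.09 in A172 and between -4.38 and -3.23 in U87, so no change is given. CCND3, the third D-type cyclin, was well above background on every array. The CCND3 level was between 0.84 and 1.06 in A172 controls, 0.72 and 1.13 in A172 knockdown, 1.05 and 2.04 in U87 controls and 1.26 and 2.00 in U87 knockdown. Control and knockdown overlapped in both lines, with paired log2 fold changes of -0.04 in A172 (SE 0.11, adjusted p = 0.999) and 0.06 in U87 (SE 0.09, adjusted p = 0.718). Without set 3 the paired U87 value of CCND3 was 0.01 (limma adjusted p = 0.959). The U87 groups of CCND3 stood above its A172 groups by mean, and neighbours in that order overlapped. The U87 arrays of the sets other than set 3 lay above every A172 array.

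CDK4 is a catalytic partner of the D-type cyclins. In A172 the CDK4 level was 3.44, 3.37 and 3.16 in the controls and 3.69, 3.74 and 3.19 after knockdown. The U87 arrays read 4.09, 4.27, 3.97 and 4.04 in the controls and 4.34, 4.42, 4.11 and 4.16 after knockdown. Each knockdown array was higher than its paired control, by 0.04 to 0.36, and the groups overlapped within each line. Of the 21166 probes tested in both lines, 7.29% were higher in all 7 pairs and 3.39% lower. The CDK4 signs were the same under each of the 4 other scalings, for which these shares were not counted. The CDK4 log2 fold change was 0.21 in A172 (SE 0.11, adjusted p = 0.627) and 0.17 in U87 (SE 0.09, adjusted p = 0.356), and the average of 0.19 (SE 0.07, adjusted p = 0.183) fell short of 0.5. In the order of levels both U87 groups lay above both A172 groups with no overlap between the lines.

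The CDK4 promoter is shown because CDK4 was higher in all 7 pairs. Sequences are the 200 bases before the gene's start in the RefSeq promoter table of GRCh38.p14, in which 6 of the 10 members were found. Capitals mark matches on either strand to GGGCGG, a GC box, or to CACGTG, an E-box.
CDK4 promoter, chr12:57752311-57752510, minus strand: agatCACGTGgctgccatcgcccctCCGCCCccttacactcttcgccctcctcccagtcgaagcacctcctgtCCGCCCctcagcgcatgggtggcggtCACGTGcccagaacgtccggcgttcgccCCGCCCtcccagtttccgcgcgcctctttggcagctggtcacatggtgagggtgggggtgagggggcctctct
It held 3 matches to GGGCGG, starting 175, 127 and 73 bases before the gene, and 2 to CACGTG, at 196 and 101 bases. In the 35116 promoter windows of the same length, 40.1% held GGGCGG and 5.49% held CACGTG on either strand. The searches for TTTCGCGC and TTTGGCGC, E2F motifs found in 0.365% and 0.447% of windows, and for the CRE motif TGACGTCA, found in 1.57%, gave no match in the CDK4 window.

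CDK6, the other partner of the D-type cyclins, was lower in each A172 pair. Its A172 level was 3.11, 1.88 and 2.73 in the controls and 2.65, 0.29 and 1.42 after knockdown, a difference of -0.45, -1.58 and -1.31 in the pairs. The A172 groups overlapped, since the set 1 knockdown array lay above the set 2 control. In U87 the CDK6 level was -0.78, -0.65, -3.40 and 0.48 in the controls and -0.67, -1.13, -1.76 and 0.88 after knockdown. Both set 3 values were not well above background, so no direction is given for that pair. The other U87 pairs were higher in sets 1 and 4 and lower in set 2. The paired log2 fold change of CDK6 was -1.12 in A172 (SE 0.38, adjusted p = 0.292) and 0.42 in U87 (SE 0.31, adjusted p = 0.469), and the difference was -1.54 (SE 0.47, adjusted p = 0.307). None of these was called with all arrays. The A172 value was called in the paired model without U87 set 3 (adjusted p = 0.0973), where the value itself was unchanged and only the shared spread differed. It was also called with A172 fitted by itself (adjusted p = 0.119) and with a trended robust variance (adjusted p = 0.132). After normexp background correction it was called at -1.02 (adjusted p = 0.000534). Without set 3 the U87 value was 0.01 (adjusted p = 0.989) and the difference -1.13 (adjusted p = 0.23), and the difference was called only after normexp, at -1.05 (adjusted p = 0.0178), among the paired alternatives run.

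**Figure D2:**
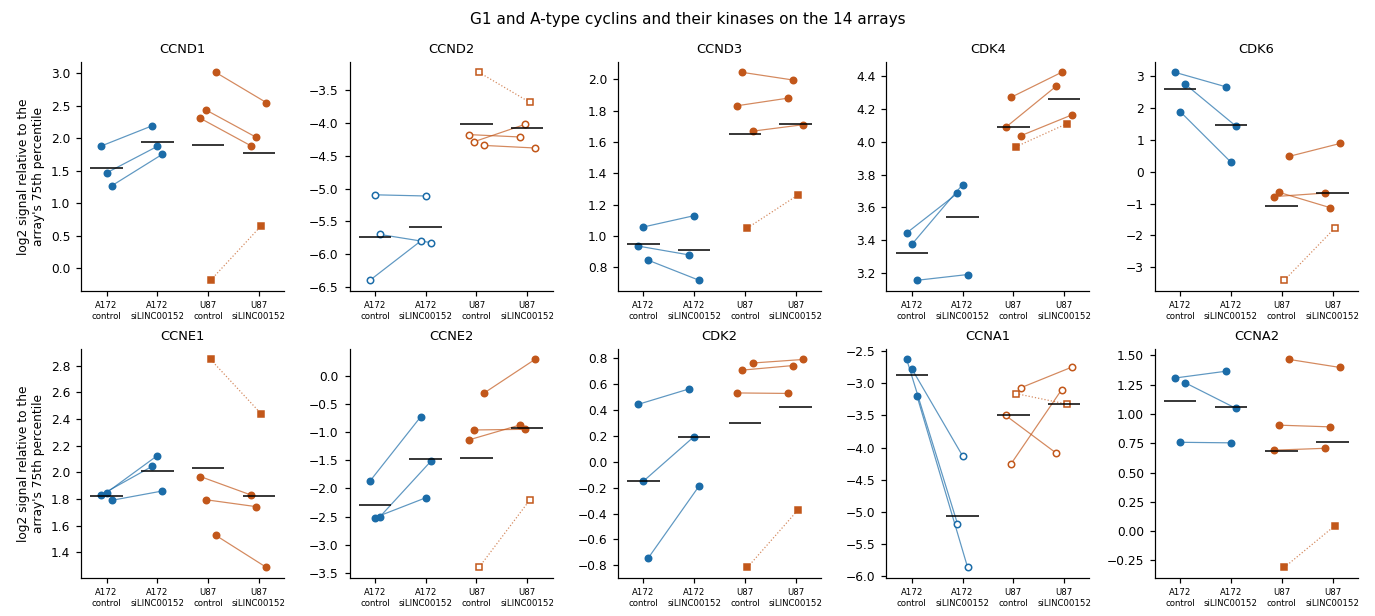
Log2 level of each member, by its brighter probe, on each array of the 4 groups, with bars for the group means, lines joining the arrays of a set, open symbols where the probe was not well above background and squares for U87 set 3. CDK6 lies between 0.29 and 3.11 in A172 and between -3.40 and 0.88 in U87, and CCND2 is open on all arrays.

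Cyclin E1, encoded by CCNE1, activates CDK2 at the G1 to S transition. In A172 the CCNE1 level was 1.83, 1.85 and 1.79 in the controls and 2.04, 2.12 and 1.86 after knockdown. These 3 knockdown arrays lay above all 3 controls, by a narrow margin in set 3. The U87 level of CCNE1 was 1.97, 1.79, 2.85 and 1.53 in the controls and 1.83, 1.74, 2.44 and 1.29 after knockdown, lower in each pair, with differences from -0.41 to -0.05 and overlapping groups. CCNE1 was thus higher in 3 of 3 A172 pairs and lower in 4 of 4 U87 pairs, as were 283 of 21166 probes, 1.34%. The CCNE1 signs were the same under the other 4 scalings, for which that share was not counted. The paired log2 fold change was 0.19 in A172 (SE 0.12, adjusted p = 0.743) and -0.21 in U87 (SE 0.10, adjusted p = 0.282), and the difference of 0.40 (SE 0.15) was not called (adjusted p = 0.414). Without U87 set 3 the difference was 0.33 (adjusted p = 0.35). In order of mean level the CCNE1 groups were U87 control, A172 knockdown, U87 knockdown and A172 control, with all neighbours overlapping. This order rests on U87 set 3, the highest array of both U87 groups. Without it both A172 groups stood above both U87 groups by mean, and the limma comparison of controls was at 0.06 (adjusted p = 0.839).

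Cyclin E2, encoded by CCNE2, acts beside cyclin E1. At its brighter probe, A_33_P3217819, the A172 level was -1.87, -2.52 and -2.50 in the controls and -0.73, -2.17 and -1.52 after knockdown. For U87 it was -1.14, -0.96, -3.40 and -0.31 in the controls and -0.87, -0.95, -2.21 and 0.29 after knockdown, with both set 3 values not well above background. By value the knockdown array was higher in 7 of 7 pairs, although U87 set 2 turned to just below its control when arrays were scaled to their median. As both U87 set 3 values were at background, that pair, at 1.20, gives no size or direction. The U87 and average values fitted with all arrays nevertheless include it. The other pairs differed by 0.01 to 1.14, and groups overlapped in both lines. The paired log2 fold change was 0.83 in A172 (SE 0.24, adjusted p = 0.218) and 0.52 in U87 (SE 0.20, adjusted p = 0.207). CCNE2 rose by 0.67 in the average of both lines (SE 0.15, 95% interval 0.33 to 1.02, adjusted p = 0.0433) in the paired model, while the model without sets gave an adjusted p of 1. Without U87 set 3 the average was 0.56 (adjusted p = 0.0312) and called, while the U87 value was 0.29 (adjusted p = 0.424). The A172 value was then called as well (adjusted p = 0.0938), itself unchanged and with only the shared spread differing. The A172 value was also called with A172 fitted by itself (adjusted p = 0.132) and with a trended robust variance (0.163), and the U87 value with arrays scaled to their median, at 0.58 (0.182). The average call was lost by size after normexp, at 0.27 (adjusted p = 0.0565), and without the background filter (adjusted p = 0.205), and leaving out U87 set 1, 2 or 4 left too few U87 arrays well above background for a value.

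The second CCNE2 probe, A_33_P3247022, gave A172 levels of -2.02, -3.13 and -3.11 in the controls and -1.40, -2.89 and -2.67 after knockdown. It was higher in 3 of 3 A172 pairs, with 1 control not well above background, so that it entered by its knockdown arrays alone, and a paired log2 fold change of 0.43 (SE 0.27, adjusted p = 0.711). After normexp the count for this probe was 2 of 3. In U87 it was well above background on 1 of 8 arrays, the set 4 knockdown at -1.46, and was not tested. As every U87 pair held a value not well above background, no U87 direction or size is given for this probe.

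CDK2 is the kinase bound by the E-type and A-type cyclins. In A172 the CDK2 level was 0.44, -0.15 and -0.74 in the controls and 0.56, 0.19 and -0.19 after knockdown, higher in each pair by 0.12 to 0.55. U87 levels of CDK2 were 0.53, 0.71, -0.82 and 0.76 in the controls and 0.53, 0.74, -0.37 and 0.79 after knockdown. The U87 pairs were close except in set 3, where the knockdown array was higher by 0.45, and the CDK2 groups overlapped in both lines. The log2 fold change was 0.34 in A172 (SE 0.14, adjusted p = 0.44), 0.13 in U87 (SE 0.12, adjusted p = 0.557) and 0.23 in the average (SE 0.09, adjusted p = 0.189). It was 0.02 in U87 without set 3 (adjusted p = 0.949). Mean levels of CDK2 and of the brighter CCNE2 probe followed the same order, from U87 knockdown through U87 control and A172 knockdown to A172 control, with overlap between all neighbours.

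**Figure D3:**
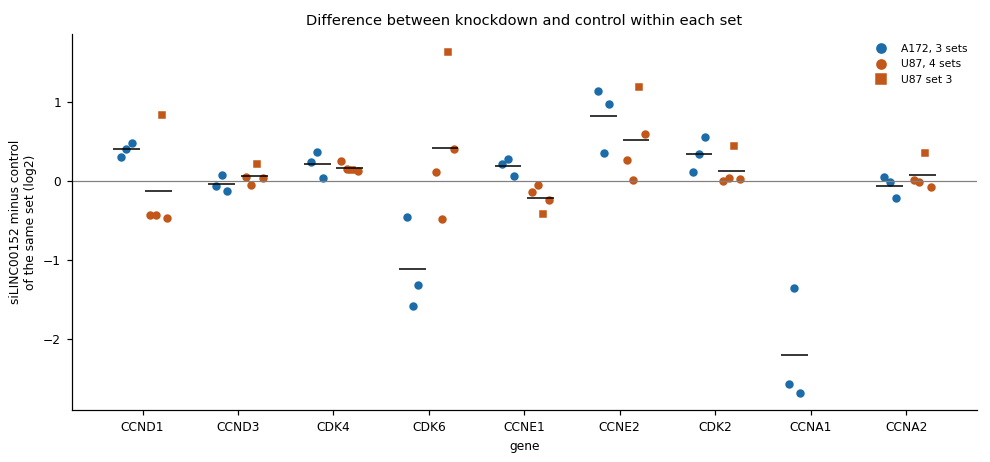
Knockdown minus control log2 level for each set, by tested member and line, where each point is 1 pair, bars are means and squares are U87 set 3. CDK4 and the brighter CCNE2 probe lie above 0 in 7 of 7 pairs. For CCNE2, U87 set 2 lies just below 0 when scaled to the array median, and both U87 set 3 values were not well above background. CCNE1 lies above 0 in the 3 A172 pairs and below 0 in the 4 U87 pairs.

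Cyclin A1, encoded by CCNA1, is the A-type cyclin best known from the male germline. The A172 level of CCNA1 was -2.63, -2.77 and -3.19 in the controls, all well above background, and -5.19, -4.13 and -5.87 after knockdown, none well above background. All 3 knockdown arrays lay below all 3 controls. The fitted log2 fold change of CCNA1 in A172 was -2.20, with SE 0.45 and adjusted p = 0.143 without a term for the sets and SE 0.36 and adjusted p = 0.0366 with it. As the knockdown signal was at background, the fitted value is no measure of size and no fold is given. The level below which 95% of dim probes lay was -4.31, -3.14 and -3.68 on the control arrays of sets 1 to 3 and -3.75, -3.16 and -3.79 on the knockdown arrays.

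The CCNA1 call depended on the processing. Without the term for the sets it was lost after normexp, at -0.24 (adjusted p = 1), after quantile normalization, at -1.71 (adjusted p = 0.21), with the authors' deposited log2 values, at -1.87 (adjusted p = 0.225), without the background filter (adjusted p = 0.255), with A172 fitted by itself (adjusted p = 0.393) and with a trended robust variance (adjusted p = 0.202). It was also lost without any 1 A172 set (adjusted p from 0.231 to 1), without U87 set 1 (0.25) or 2 (0.258), without any single A172 array other than the set 2 knockdown (0.362 to 0.803), and without the U87 set 1 control (0.25) or set 2 knockdown (0.219). With the term for the sets it was lost by size after normexp, at -0.24 (adjusted p = 0.161), and by adjusted p without A172 set 1 (adjusted p = 0.247) or set 3 (adjusted p = 0.281). In U87 CCNA1 was not well above background on any of 8 arrays, with values from -4.26 to -2.75.

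The CCNA1 promoter window, given beside the called member, held no match to any of the 5 motifs.
CCNA1 promoter, chr13:36431755-36431954, plus strand: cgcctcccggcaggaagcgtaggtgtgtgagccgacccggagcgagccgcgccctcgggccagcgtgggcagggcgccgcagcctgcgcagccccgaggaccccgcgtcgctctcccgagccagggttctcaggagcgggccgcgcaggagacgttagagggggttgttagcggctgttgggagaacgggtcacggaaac

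Cyclin A2, encoded by CCNA2, is the A-type cyclin of dividing somatic cells. In A172 its level was 1.31, 0.76 and 1.27 in the controls and 1.37, 0.75 and 1.05 after knockdown. In U87 it was 0.69, 0.91, -0.31 and 1.47 in the controls and 0.71, 0.89, 0.05 and 1.40 after knockdown. CCNA2 was close to its paired control except in A172 set 3 and U87 set 3, and the groups overlapped in both lines. The paired log2 fold change was -0.06 in A172 (SE 0.13, adjusted p = 0.997) and 0.07 in U87 (SE 0.11, adjusted p = 0.718), and without set 3 the U87 value was -0.02 (adjusted p = 0.932). By mean level the A172 groups of CCNA2 stood above the U87 groups with all neighbours overlapping. For the controls this gap rests largely on U87 set 3. The limma comparison of controls was at 0.42 with it and at 0.09 without it (adjusted p = 0.82).

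The control arrays of the lines were compared to give the order of each member between A172 and U87. In controls CDK6 was higher in A172 than in U87 by 3.66 (SE 0.82, adjusted p = 0.00323), CDK4 was lower, at -0.77 (SE 0.22, adjusted p = 0.0131) and CCND3 was lower, at -0.70 (SE 0.27, adjusted p = 0.0533). These 3 of 9 member probes were called where 54.5% of all 28251 probes were. At an unadjusted limma p under 0.05 there were 3 members, beside 46.8% of all probes. Without U87 set 3 the called count was 6 of 9. The share of all probes called in that fit is not given here, so nothing is drawn from this rise. Over all fits that left out an array or a set, 12684 to 16427 probes were called, against 15409 with all arrays. Without U87 set 3, CCND1 at -1.05 (adjusted p = 0.0088), CCNE2 at -1.50 (adjusted p = 0.0137) and CDK2 at -0.82 (adjusted p = 0.0407) were also called, and CDK6 was at 2.89. After normexp, which moved the median of all probes in this comparison from 0.02 to -0.25, CDK4 at -0.11 and CCND3 at -0.32 were not called. CCNE2, at -0.89, was called after normexp (adjusted p = 0.00142). CCNA1, not well above background on any of the 4 U87 controls, was at 0.63 and not called. It was called higher in A172 after quantile normalization, at 0.91 (adjusted p = 0.0522), with the deposited values, at 1.01 (0.0503), and after median scaling, at 0.77 (0.176), and lower after normexp, at -0.72 (0.00322), so no direction is given. Without U87 set 4, CCNA1 at 0.78 (adjusted p = 0.187) and CCNA2 at 0.68 (adjusted p = 0.153) were called, and CCND1 was at 0.02 (adjusted p = 0.984). Line and slide cannot be told apart for CDK6, CDK4 or CCND3.

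Regulators of the cyclin and kinase complexes were followed as 6 lists of pathway genes, again without set tests. In the model without a term for the sets 0 of these list genes were called in either line, beside 0.183% of all probes in A172 and 0.0502% in U87. The unadjusted limma p was under 0.05 for SKP2 and CDT1 in A172 and for SKP2 in U87, beside 2.32% and 2.59% of all probes. In the paired model the CDK inhibitors, which bind and block the kinases, had 1 of 6 tested genes called lower in A172 and 1 of 3 in U87, beside 2.22% and 2.78% of all probes, with median log2 fold changes of -0.06 and -0.22 against 0.02 and -0.02 over all probes. The called inhibitor was CDKN1A, which encodes p21, in both lines. In A172 the CDKN1A level was 2.43, 1.77 and 2.78 in the controls and 1.95, 0.96 and 1.33 after knockdown. The U87 values were 3.57, 3.22, 4.82 and 3.05 in the controls and 2.70, 2.49, 4.07 and 2.29 after knockdown. CDKN1A was lower in 7 of 7 pairs under every scaling. With arrays set to their 75th percentile the differences ran from -1.44 to -0.48. The groups overlapped in each line and set 3 held the highest U87 values. CDKN1A fell by 0.91 in A172 (SE 0.18, adjusted p = 0.0705), by 0.78 in U87 (SE 0.15, adjusted p = 0.0447) and by 0.84 in the average (SE 0.11, adjusted p = 0.00526). The A172 call of CDKN1A was lost without A172 set 2, at -0.96 (adjusted p = 0.304), or set 3, at -0.64 (adjusted p = 0.327), the U87 call was lost without the background filter (adjusted p = 0.222), and the average call was kept without any 1 set. CDKN2D, another inhibitor, entered the A172 test by its controls alone, at -1.72, -2.33 and -2.57, against -1.89, -3.92 and -3.65 after knockdown with sets 2 and 3 not well above background. It was not called (adjusted p = 0.395) and no size is given. Without it the A172 median of the list was -0.043. At an unadjusted limma p under 0.05 in the paired model there were 2 of the 6 inhibitors in A172 (1 without CDKN2D). There was 1 of the 3 in U87, and the shares of all probes were 10.8% and 19.6%.

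Of the genes for degradation of cyclins and inhibitors, 1 of 9 tested was called higher in A172 and 1 of 8 in U87, beside 1.12% and 2.77% of all probes, with medians of -0.07 and 0.15 against 0.02 and -0.02. This was SKP2, the ubiquitin ligase subunit that targets p27 and p21. The unadjusted paired limma p was under 0.05 for 1 of the 9 in A172 and 2 of the 8 in U87, beside 10.8% and 19.6% of all probes. In A172 the SKP2 level was 1.64, 0.95 and 1.18 in the controls and 2.51, 2.09 and 2.47 after knockdown. In U87 it was 1.40, 1.16, 0.82 and 1.94 in the controls and 1.76, 1.60, 2.01 and 2.37 after knockdown. The SKP2 groups did not overlap in A172 and overlapped in U87, and the knockdown array was higher in 7 of 7 pairs under every scaling. SKP2 rose by 1.103 in A172 (SE 0.18, adjusted p = 0.0401), 0.61 in U87 (SE 0.15, adjusted p = 0.0881) and 0.85 in the average (SE 0.11, adjusted p = 0.00587). The U87 value of SKP2 was short of 0.5 without U87 set 3, at 0.41 (adjusted p = 0.0938), and after normexp, at 0.36 (adjusted p = 0.0959), and its call was lost without the background filter (adjusted p = 0.316) and with U87 fitted by itself (adjusted p = 0.209). The A172 call was lost without A172 set 2 (adjusted p = 0.254) or set 3 (adjusted p = 0.298). The average call was kept without any 1 set. Without a term for the sets the averages of CDKN1A and SKP2 were not called (adjusted p = 1 and 0.202).

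The promoters of CDKN1A and SKP2 are shown because these were the list genes called in both lines, in opposite directions, with capitals again for motif matches.
CDKN1A promoter, chr6:36678514-36678713, plus strand: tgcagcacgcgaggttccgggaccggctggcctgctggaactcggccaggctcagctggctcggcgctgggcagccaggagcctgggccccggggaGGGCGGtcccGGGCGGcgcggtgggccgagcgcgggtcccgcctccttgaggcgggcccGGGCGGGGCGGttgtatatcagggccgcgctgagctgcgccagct
SKP2 promoter, chr5:36151911-36152110, plus strand: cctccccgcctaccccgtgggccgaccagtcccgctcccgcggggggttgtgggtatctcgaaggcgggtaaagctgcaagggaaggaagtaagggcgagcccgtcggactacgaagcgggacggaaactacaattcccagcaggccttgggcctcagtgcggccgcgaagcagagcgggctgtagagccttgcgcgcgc
The CDKN1A window held 4 matches to GGGCGG, starting 104, 94, 45 and 40 bases before the gene, with the last pair overlapping by a base, and none to the other motifs. The SKP2 window held no match to any of the 5.

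**Figure D4:**
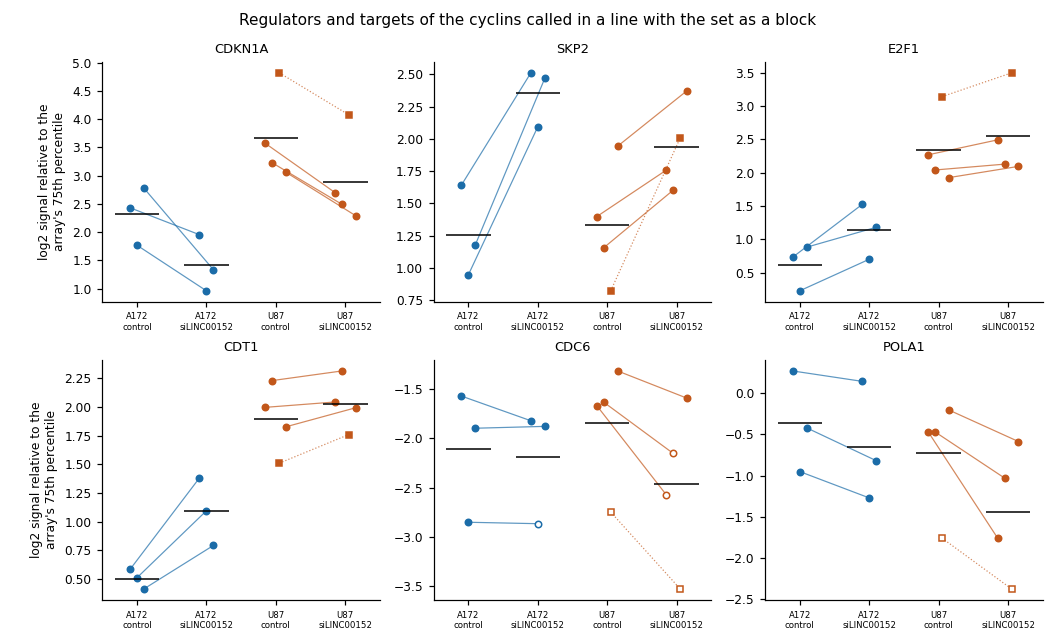
Log2 level on each array of the 6 list genes called in the paired model, with bars for group means, lines joining the arrays of a set, open symbols for values not well above background and squares for U87 set 3. CDKN1A is lower and SKP2 higher after knockdown in 7 of 7 pairs, and CDC6 in U87 entered the test by its controls alone.

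Of the pocket proteins and E2F factors, which CDK4, CDK6 and CDK2 act on, 1 of 10 was called in A172 and 0 of 9 in U87 in the paired limma model, beside 3.33% and 5.55% of all probes, with medians of 0.17 and -0.11. The unadjusted limma p was under 0.05 for 3 of the 10 in A172, E2F1, E2F4 and E2F6, and for 0 of the 9 in U87, beside 10.8% and 19.6% of all probes. The called gene was E2F1, an activator of S phase genes, at 0.52 in A172 (SE 0.13, adjusted p = 0.155) and higher in 7 of 7 pairs. Its call was lost without any 1 A172 set (adjusted p from 0.353 to 0.541) and without U87 set 1 (0.243), 2 (0.233) or 4 (0.243), by size after normexp, at 0.42, and without the background filter (0.346). E2F2 had the largest U87 value of that list at -0.45 (adjusted p = 0.398). Of 14 S phase genes that E2F factors control, CDT1, which licenses replication origins, rose by 0.59 in A172 (SE 0.12, adjusted p = 0.09), with knockdown above control on all arrays. The CDT1 call was lost without any 1 A172 set (adjusted p from 0.261 to 0.409), by size after normexp, at 0.47, and without the background filter (0.252). In U87 POLA1, a subunit of the primase polymerase, fell by 0.71 (SE 0.15, adjusted p = 0.0577) and was lower in 4 of 4 pairs with overlapping groups. POLA1 was well above background on 6 of 8 U87 arrays and on neither of set 3, and it was at -0.74 without that set (adjusted p = 0.0782). It was short of 0.5 after normexp, at -0.20 (adjusted p = 0.176), and was not called without the background filter (adjusted p = 0.256). The origin licensing gene CDC6 also passed the call rule in U87 (adjusted p = 0.0505), but it entered by its controls alone, well above background on 3 controls and 1 knockdown array. Of the 1158 probes that entered the U87 test so, 0 were called higher and 275 lower, so nothing is drawn from the CDC6 call, which was lost after normexp, at -0.11 (adjusted p = 0.504), and without the filter (0.247). Of the 14 genes 1 was called in A172 and 2 in U87, or 1 without CDC6, beside 3.33% and 5.55% of all probes. At an unadjusted limma p under 0.05 in the paired model there were 4 in A172, 3 in U87 (2 without CDC6) and 6 in the average. The shares of all probes were 10.8%, 19.6% and 19.6%. The S phase medians were 0.17 in A172 and 0.11 in U87, and 0.18 and 0.12 without CDC6, which entered by its controls alone in both lines.

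Of the enzymes that activate or inhibit the kinases, 0 of 7 were called in A172 and 0 of 8 in U87 in the paired limma model, beside 3.33% and 5.55% of all probes, with an unadjusted p under 0.05 for 1 and 3, beside 10.8% and 19.6%. The medians were -0.13 and -0.013. The 3 in U87 were the CDK-binding subunit CKS2 and the phosphatases CDC25B and CDC25C, of which CKS2 and CDC25C entered by their controls alone, and without those the U87 median was 0.099. CKS2 was well above background on 3 controls and 2 knockdown arrays (adjusted p = 0.103), so no size is given. CDC25B, named after its values were seen, was well above background on all 8 U87 arrays and was at 0.41 (SE 0.10, adjusted p = 0.082), short of 0.5. In A172 the largest value was at CKS1B, another CDK-binding subunit, at -0.47 (adjusted p = 0.211). Of the mitotic cyclins, CDK1 and the growth markers, 0 of 6 and 0 of 5 were called in the paired limma model, with an unadjusted p under 0.05 for 0 and 1, beside the same shares of all probes, and medians of 0.04 and -0.03. The largest were CCNF at -0.31 in A172 (adjusted p = 0.956) and the DNA topoisomerase TOP2A at 0.37 in U87 (adjusted p = 0.185).

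For 1 cyclin of each class, the probes with the most similar levels over the 14 arrays were sought among 15498 probes after the mean of each line was removed. They are a description without a test. CCND1 was followed most closely by DUT (r = 0.977), SLBP (r = 0.972) and TMEM209 (r = 0.972), and without the 2 arrays of U87 set 3 these were 0.851, 0.826 and 0.820. CCNE2 was followed by ALG13 (r = 0.970), RBM34 (r = 0.969) and TMEM167A (r = 0.963), at 0.922, 0.906 and 0.887 over the other 12 arrays. CCNA2 was followed by SLC30A1 (r = 0.984), MRPS30 (r = 0.984) and RPF2 (r = 0.983), at 0.953, 0.970 and 0.951. For all 3 cyclins the set 3 arrays raised the value. The 7 pairs, from 3 experiments in A172 and 4 in U87, limit the precision of every member value, and protein and kinase activity were not measured.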

How the data were processed

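The 14 arrays were read as deposited Feature Extraction files, whose processed signal is an intensity per the file headers, background-subtracted and not scaled between arrays. The authors also deposited a table of log2 values, which matched the scanner signal in order on each array (Spearman 1.00, column medians 4.49 to 4.56) and served as an alternative. Of 58717 non-control spots none was saturated. Spots flagged as outliers were left out, spots of 1 probe were averaged, and each array was set to its 75th percentile on the log2 scale. One limma 3.58.1 model in R 4.3.3 held 4 group means over 14 arrays, with Benjamini-Hochberg adjustment over all probes tested in a comparison, FDR under 0.2 and log2 fold change beyond 0.5.

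The paired model added a term for each set. Set numbers were taken as pairs because, after each group's mean was removed, control and knockdown arrays of the same number correlated at 0.675 to 0.794 in A172 and 0.373 to 0.864 in U87, against -0.701 to -0.0436 and -0.772 to 0.411 for other numbers. Removing group means itself pulls the other-number values down where same-number values are positive. As the ranges overlapped in U87, this check alone does not settle the pairing there. No term for the sets could be fitted for A172 against U87 controls. Alternatives were normexp background correction (offset 50, on median signals), quantile normalization, the deposited values, array median scaling, no or a stricter background filter, outlier spots kept, each line alone, trended robust variance, FDR under 0.05, treat at 0.5, and leaving out each array or set.

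All probes of the 10 members were described, the brighter CCNE2 probe standing for the gene in counts. Named list genes were those called in either line in either model and the largest paired value of each list and line, with the 3 probes most like CCND1, CCNE2 and CCNA2. The members and lists were chosen with earlier results of these data known. The average over lines, the paired model with other scalings, filters or variances, list medians and counts without genes that entered by 1 treatment group alone, and the controls and correlations without U87 set 3 were added after seeing the data. The code was tested on simulated data.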

Additional observations from a re-analysis of the deposited data

Results flagged for a closer look

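In 22 groups of 4 U87 arrays, 1 for each of 11 probes and each treatment, the gap between the farthest array and its neighbour was compared with the group's range, by which chance picks out about 1 in 20 groups. It was large in 3 groups. The CCND2 value of the U87 set 3 control, -3.23, was the highest of its group, where no array was well above background. The second CCNE2 probe, A_33_P3247022, had its highest U87 control value in set 4, at -2.49, also not well above background. The CDK2 value of the U87 set 3 control, -0.82, was the lowest of its group. U87 set 3 was the farther end in 15 of the 22 groups.

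CCNE1 was higher after knockdown in 3 of 3 A172 pairs and lower in 4 of 4 U87 pairs. The difference of the effects, 0.40, was tested in the paired limma model (unadjusted p = 0.0274, adjusted p = 0.414) and was not called.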

How the results depend on the processing

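Pairing changed the counts most. With a term for the set, 945 probes were called in A172 (52 without), 1216 in U87 (11 without) and 280 for the difference (2 without), while the average of the lines had 605 in the paired model and 98 without it, with 1 and 0 member probes. Without the term, normexp gave 133 in A172, 3 in U87 and 0 for the difference, quantile normalization 1 for the difference, no filter 34 and A172 alone 14 in A172, FDR under 0.05 27, 7 and 1, and treat at 0.5 15, 5 and 1. Probes called in A172 numbered 60 under quantile normalization, 60 with the deposited values and 52 with trended robust variance. The member count in A172 went from 1 to 0 under normexp, quantile normalization, the deposited values, no filter, A172 alone, trended robust variance, FDR under 0.05 and treat. The cause was not tested, except that FDR and treat are stricter and fewer or more probes enter the adjustment under other filters. Between the lines' controls, normexp turned CCNA1 to -0.72 (from 0.63; called, adjusted p = 0.00322) and CCNE1 to 0.32 (from -0.21).

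With pairs, normexp gave 142 in U87, 432 for the difference with 1 member probe, CDK6, and 147 for the average with 0. The deposited values gave 184 for the difference. Array median scaling gave 1327 probes in U87 with 1 member probe, CCNE2, against 1216 and 0 in the main paired model. No filter gave 587 in A172, 330 in U87, 20 for the difference and 808 for the average, with 0 member probes for the average. Each line alone gave 1612 in A172 and 676 in U87. A172 alone and trended robust variance each gave 3 member probes in A172, CCNA1, CCNE2 and CDK6. All probes called there numbered 1612 and 1062, against 945 in the main paired model. The cause was not tested.

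Leaving out an array or a set gave 4 to 129 probes in A172 with 0 to 1 member probes, 3 to 27 in U87, 0 to 3 for the difference and 12684 to 16427 between controls with 3 to 6 member probes. With pairs it gave 243 to 1439 in A172 with 0 to 3 member probes, 842 to 1143 in U87, 35 to 654 for the difference with 0 to 1, and 485 to 626 for the average with 0 to 2, CCNE2 and CDK6 (-0.55, adjusted p = 0.0834) without U87 set 3. Small values crossed 0. In A172 these were CCNA2 (-0.23 to 0.10, with pairs -0.11 to 0.027), CCND3 (-0.15 to 0.059, with pairs -0.092 to 0.0081), the second CCNE2 probe (-0.027 to 0.80), CDC6 (-0.45 to 0.26, with pairs -0.13 to 0.0021) and POLA1 (-0.68 to 0.037). In U87 they were CCNA2 (-0.26 to 0.33, with pairs -0.022 to 0.12), CCND1 (-0.81 to 0.25), CCND3 (-0.14 to 0.21), CCNE1 (-0.42 to 0.060), CCNE2 (-0.13 to 0.94), CDK2 (-0.24 to 0.39), CDK6 (-0.35 to 0.94) and E2F1 (-0.11 to 0.48). Between controls they were CCND1 (-1.05 to 0.019) and CCNE1 (-0.38 to 0.060). CCNE2, CDK6, CDC6 and POLA1 in U87 were not tested without 1 of several U87 arrays, since under 3 arrays of each group were then well above background. Where an A172 group was down to 2 arrays, both had to be so for a probe to enter by that group.

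Over all alternatives and single-gene values in the model without sets, 1208 kept direction and side of the threshold, 22 lost and 23 gained a call, and 35 changed sign. In the paired model the counts were 473, 34, 11 and 4. The median over all probes between controls was 0.02 and became -0.25 under normexp, 0.11 under quantile normalization, 0.13 with the deposited values and 0.15 under array median scaling. Probes called there split 7647 up and 7762 down, and 4906 and 9690 under normexp. In the paired model U87 probes split 607 up and 609 down, and 909 and 418 under array median scaling. Signal over background limits CCND2, CCNA1 and CCNE2.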
